A study of Homo sapiens with 18 samples.

Results

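The genes described here encode the machinery that copies chromosomal DNA: 51 genes, out of 18417 genes on the arrays. They were chosen by name for the roles of their products and not by a rule on measured values, but with earlier results of these data known. All 51 were measured. RNA came from NCI-H1299, a non-small cell lung carcinoma line without p53, collected 40 hours after transient transfection with the plasmid pIRES-2EGFP and sorted for green fluorescence, so that only cells that took up the plasmid were measured. The titles give 6 groups of 3 arrays. The first set held cells given ΔNp53:WTp53 (wild-type p53 together with the isoform that lacks the N terminus), WTp53 alone, or the empty vector, each in experiments 0, 4 and 5, which the series states to be independent transfections. The second set held tethered WTp53, WTp53 and the empty vector in experiments d, e and f, called control experiments. Whether d, e and f were separate transfections is not stated, so p-values there measure only the spread between these arrays. Titles and descriptions name the tethered construct on 3 arrays whose transfection field names ΔNp53:WTp53 instead; the titles were followed. Every p53 group carries protein made from a transfected plasmid in cells that have none of their own, and every group, the vector included, expresses the fluorescent protein.

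DNA replication begins when the origin recognition complex, CDC6 and CDT1 load the ring of MCM2 to MCM7 on DNA in G1 phase, and geminin later blocks a further round by binding CDT1. The kinase CDC7 with DBF4, together with CDC45 and the GINS complex, turns the ring into an active helicase, after which polymerases, the PCNA clamp and its loader copy both strands. Many of these genes are known to be transcribed in late G1 and S phase through E2F factors, whereas p53 is known to induce p21, which blocks the kinases that release E2F.

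The promoters of a few genes on which the results turn are printed to show the E2F-type words in them: genes lower with p53 (CDC6, MCM2, MCM6 and POLE2) and genes higher with p53 (PCNA and ORC4). The windows run from 250 bases before to 50 bases after a start of transcription, 5′ to 3′ on the gene's strand, from RefSeq on GRCh38.p14, with E2F-type words on either strand in capitals. They lie at chr17:40287629-40287928 on the plus strand (CDC6), chr3:127598161-127598460 on the plus strand (MCM2), chr2:135876394-135876693 on the minus strand (MCM6), chr14:49688165-49688464 on the minus strand (POLE2), chr20:5126573-5126872 on the minus strand (PCNA) and chr2:148020688-148020987 on the minus strand (ORC4).
CDC6: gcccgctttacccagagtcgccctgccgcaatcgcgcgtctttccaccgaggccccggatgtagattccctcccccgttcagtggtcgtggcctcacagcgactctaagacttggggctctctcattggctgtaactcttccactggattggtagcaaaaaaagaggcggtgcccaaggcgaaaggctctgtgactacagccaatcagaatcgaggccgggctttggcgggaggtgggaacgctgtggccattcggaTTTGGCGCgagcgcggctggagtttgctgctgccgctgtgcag
MCM2: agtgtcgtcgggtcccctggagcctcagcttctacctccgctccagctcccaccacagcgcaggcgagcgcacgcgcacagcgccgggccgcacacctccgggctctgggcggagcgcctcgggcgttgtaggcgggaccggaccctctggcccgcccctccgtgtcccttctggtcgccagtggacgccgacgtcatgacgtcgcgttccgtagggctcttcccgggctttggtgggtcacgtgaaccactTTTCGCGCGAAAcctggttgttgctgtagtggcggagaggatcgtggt
MCM6: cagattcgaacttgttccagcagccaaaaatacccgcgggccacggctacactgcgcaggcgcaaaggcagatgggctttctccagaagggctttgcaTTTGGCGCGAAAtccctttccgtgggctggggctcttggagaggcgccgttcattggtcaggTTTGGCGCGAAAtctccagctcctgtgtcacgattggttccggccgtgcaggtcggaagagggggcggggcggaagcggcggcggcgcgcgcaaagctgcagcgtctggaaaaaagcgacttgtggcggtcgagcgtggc
POLE2: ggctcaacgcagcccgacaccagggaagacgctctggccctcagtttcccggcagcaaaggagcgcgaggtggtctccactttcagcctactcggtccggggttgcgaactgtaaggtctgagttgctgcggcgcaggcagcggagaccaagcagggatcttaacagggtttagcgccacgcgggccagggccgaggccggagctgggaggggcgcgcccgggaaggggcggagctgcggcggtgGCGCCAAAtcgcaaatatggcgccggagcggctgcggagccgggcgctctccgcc
PCNA: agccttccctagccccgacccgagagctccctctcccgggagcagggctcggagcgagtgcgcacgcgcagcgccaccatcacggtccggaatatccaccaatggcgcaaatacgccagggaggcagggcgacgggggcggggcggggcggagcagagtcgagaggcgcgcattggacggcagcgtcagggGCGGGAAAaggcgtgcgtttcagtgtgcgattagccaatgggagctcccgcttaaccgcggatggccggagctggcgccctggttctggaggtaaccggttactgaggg
ORC4: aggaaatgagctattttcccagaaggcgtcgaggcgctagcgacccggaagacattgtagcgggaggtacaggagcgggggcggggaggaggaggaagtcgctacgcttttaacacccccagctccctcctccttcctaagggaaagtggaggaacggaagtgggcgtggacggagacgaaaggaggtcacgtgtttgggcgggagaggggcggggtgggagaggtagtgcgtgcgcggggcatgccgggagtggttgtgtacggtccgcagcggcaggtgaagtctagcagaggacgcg

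The words searched were TTTCCCGC, TTTCGCGC, TTTGCCGC and TTTGGCGC on both strands. In MCM2 and in MCM6 words on opposite strands overlap, so that a stretch of 12 capitals holds 2 words, and MCM6 has 4 words in all. Promoters were matched for 45 of the 51 genes (62 windows), and 23 of the 45 (51.1%) held at least 1 word, against 3.3% of all 35116 promoter windows and 5.5% of the 14239 genes on the arrays with a promoter. PCNA and GMNN, which were higher with p53, hold a word as well, each in only 1 of its windows, and neither ORC4 window does. The falling genes printed above all hold a word, but falling genes as a whole did not. Among genes with a promoter, 18 of the 35 lower than vector with both ΔNp53:WTp53 and tethered WTp53 held one. Of the 4 genes higher with both, 2 held one. Whether the words go with the direction of change was not tested, and 4 genes are too few to tell. The PCNA window not printed here holds no E2F-type word and 1 p53 half-site, and the printed one holds no p53 half-site. The CCAAT box stood in 57.8% of the 45 genes and in 42.2% of those 14239 genes. The words TTTGAA and TTCGAA of cell cycle homology regions stood in 8.9% of the 45 and 17.4% of the 14239, and the p53 half-site in 13.3% of the 45 and 8.2% of the 14239. Counted per window over all 35116, these 3 shares were 34.6%, 16.4% and 6.6%. Genes count a word in any of their windows, so a gene with several windows has more chances, and a match describes letters only.

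Values are log2 intensities after RMA, and each set was normalized apart, so levels are compared within a gene and a set. Each difference is on the log2 scale, with limma's standard error after ± and n = 3 arrays per group, and keeps its sign, negative for a fall. Array medians lay between 4.89 and 4.97 in the first set and 7.01 and 7.07 in the second. CDKN1A, the p53 target that encodes p21, checked the p53 labels against the vector labels, and not which p53 construct an array held. It stood at 8.46, 9.18 and 9.25 on the ΔNp53:WTp53 arrays of experiments 0, 4 and 5, at 9.76, 10.00 and 9.92 with WTp53, and at 5.86, 4.9 and 5.05 with vector. On the other set's arrays it stood at 11.83, 11.81 and 11.77 with tethered WTp53, 11.72, 11.71 and 11.70 with WTp53, and 8.67, 8.44 and 8.63 with vector. All p53 arrays thus lay above all vector arrays of their set. Of the cell type markers, KRT18, VIM and KRT8 averaged 10.4, 10.97 and 9.35 on the WTp53 arrays of the first set, KRT19 4.9, EPCAM 3.10, CDH1 3.66, the leukocyte marker PTPRC 2.74 and the fibroblast marker DCN 2.70. Because levels of different probe sets cannot be compared and no floor was derived, absence of a marker could not be read from them. Of the epithelial and mesenchymal markers, the keratin gene KRT8 rose by 0.86 ± 0.20 with ΔNp53:WTp53 (limma adjusted p = 0.00744), by 0.26, 1.10 and 1.20 in experiments 0, 4 and 5. In the second set KRT8, VIM and CDH1 rose with tethered WTp53 (0.60, 0.14 and 0.17) and with WTp53 (0.49, 0.21 and 0.18), and KRT19 was higher with tethered WTp53 than with WTp53 (0.22 ± 0.07). Of the leukocyte, fibroblast and endothelial markers CD14 fell with tethered WTp53 (−0.50 ± 0.08) and with WTp53 (−0.33 ± 0.08) in the second set, and no other of these was called in any comparison. The part of the markers' shifts in the results was not tested.

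A single array stood apart in these genes. The median level of the 51 genes was 7.88 on the ΔNp53:WTp53 array of experiment 0, against 7.34 and 7.03 on those of experiments 4 and 5, while the WTp53 arrays had 7.81, 7.89 and 7.73 and the vector arrays 8.25, 8.19 and 8.16. The median standard deviation between replicates of the 51 genes was 0.48 with ΔNp53:WTp53, 0.12 with WTp53 and 0.09 with vector, and that of all genes with ΔNp53:WTp53 was 0.15. CDKN1A was also lowest of the ΔNp53:WTp53 arrays on that of experiment 0, and its part in the result was not tested. The fit shares a spread over the 3 groups of a set, so this array also touches WTp53 against vector. Results of the first set are given with and without it. Each array was left out in turn, but this one was singled out on the values of these same genes. Counts and p-values without it are therefore no separate support, and those fits kept the WTp53 and vector arrays of experiment 0. Over all genes, arrays of the same experiment of the first set varied together. Arrays of experiments 4 and 5 also varied together, and those of experiment 0 ran against both. Deviations were taken from each group's mean, so a departure of experiment 0 shared by the groups would by itself give both patterns. Values with the experiment as a block are given where they move a count.

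ΔNp53:WTp53 against vector asks what both p53 forms together do to these transcripts. Most of the genes were lower: 39 of 51 fell, 5 rose (ORC4, GMNN, PCNA, RRM1 and GINS4) and 7 were not called, with a median log2 difference of −0.81, where the median of all genes was 0.01. The limma test at an adjusted p of 0.05 called 36.1% of all genes, 20.3% lower and 15.7% higher. Within experiments 0, 4 and 5 the median was −0.38, −0.94 and −1.19, and 44 of the 51 genes were negative in every experiment. Without the ΔNp53:WTp53 array of experiment 0, 41 fell and 5 rose with a median of −1.07, where 42.2% of all genes were called (23.3% lower, 18.8% higher). Without all arrays of experiment 4 only 2 of the 51 genes were called, against 10.2% of all genes, and without those of experiment 5 only 5, against 14.1%. Of the 44 calls 35 held with each of the 9 arrays left out in turn, and those of CDT1, DUT, GINS4, MCM4, MCM5, MCM7, POLD1, POLD3 and RRM1 did not.

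WTp53 against vector gave a smaller median in both sets. In the first set 12 genes fell and 4 rose (ORC4, PCNA, GINS4 and GMNN), with a median of −0.45, where 31.8% of all genes were called (16.6% lower, 15.2% higher). Of the 51 genes 31.4% were called, near that share, with 23.5% lower and 7.84% higher. The 12 were CDC6, CDC7, POLD3, PRIM1, CHAF1A, ORC2, FEN1, MCM6, POLA1, CDT1, ORC5 and RFC1. The per-experiment medians were −0.37, −0.38 and −0.51. With the experiment as a block 20 fell and 5 rose, where 35% of all genes were called. Without the ΔNp53:WTp53 array of experiment 0, 32 fell and 6 rose, the values of the genes being the same, and 37.0% of all genes were called (19.5% lower, 17.4% higher). Leaving out a vector array lowered the count of calls to 8, 8 or 7 (experiments 0, 4 and 5), against 29%, 24.4% and 24% of all genes. Leaving out the WTp53 array of experiment 4 or 5 lowered it to 7 or 6, against 24.3% and 23.6%. Of the 16 calls only the 6 of ORC2, ORC4, ORC5, PCNA, GINS4 and GMNN held with each of the 9 arrays left out in turn. In the second set 28 fell and 7 rose with a median of −0.18, where 36.8% of all genes were called (18.9% lower, 17.9% higher), and the per-experiment medians were −0.20, −0.16 and −0.17. Without the arrays of experiment d 23 of these 35 calls remained, where 27.7% of all genes were called.

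ΔNp53:WTp53 against WTp53 had a median difference of −0.42, and 48 of 51 genes were negative, yet the limma test called none. After adjustment 2.44% of all genes were called (0.880% lower, 1.56% higher). At an unadjusted p of 0.05 it gave 19 lower and 0 higher, where 18% of all genes passed. The block gave 3 lower, where it called 4.38% of all genes. The median was −0.01 between the arrays of experiment 0, against −0.57 for those labelled 4 and −0.73 for those labelled 5. Without the ΔNp53:WTp53 array of experiment 0, 35 genes fell and 1 rose (RRM1) with a median of −0.73, where 12.4% of all genes were called (6.64% lower, 5.81% higher). That array was singled out on the values of these genes, so this count is no separate support. One fit over both sets called 17 lower, against 14.6% of all genes. Without the ΔNp53:WTp53 array of experiment 5 the median was −0.20, and without all arrays of experiment 0 or 5 it was −0.64 or −0.27.

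Tethered WTp53 against vector lowered 43 genes and raised 5, with a median of −0.53, where 47.8% of all genes were called (26.2% lower, 21.6% higher). The genes not called were RPA3, LIG1 and TYMS. The medians of experiments d, e and f were −0.54, −0.51 and −0.52. Against WTp53, tethered WTp53 had 43 genes lower and 2 higher (ORC4 and RRM1), with a median of −0.29, where 32.4% of all genes were called (17.5% lower, 14.9% higher). The per-experiment medians were −0.30, −0.31 and −0.25. With each of the 9 arrays of the second set left out in turn, 45 of the 48 calls of tethered WTp53 against vector held (not GINS4, RPA2 and TK1), 39 of the 45 against WTp53, and 28 of the 35 of WTp53 against vector. For tethered WTp53 against WTp53 a pooled fit of both sets, in which the wider spread of the first set enters, called 5, against 10.1% of all genes. The same pooled fit called 36 for tethered WTp53 against vector (33.7% of all genes) and 8 for WTp53 against vector (19.6%). Of the 51 genes 26 were lower in all 3 comparisons of the second set, against 6.73% of all genes, which share the arrays of each group. A further 15, among them UHRF1, ORC6, RFC3 and GINS1 to GINS3, were called lower with tethered WTp53 against both other groups and not called lower with WTp53 against vector, against 7.1% of all genes. Fewer cells in S phase and less of each RNA per cell cannot be told apart in these bulk samples.

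**Figure D1:**
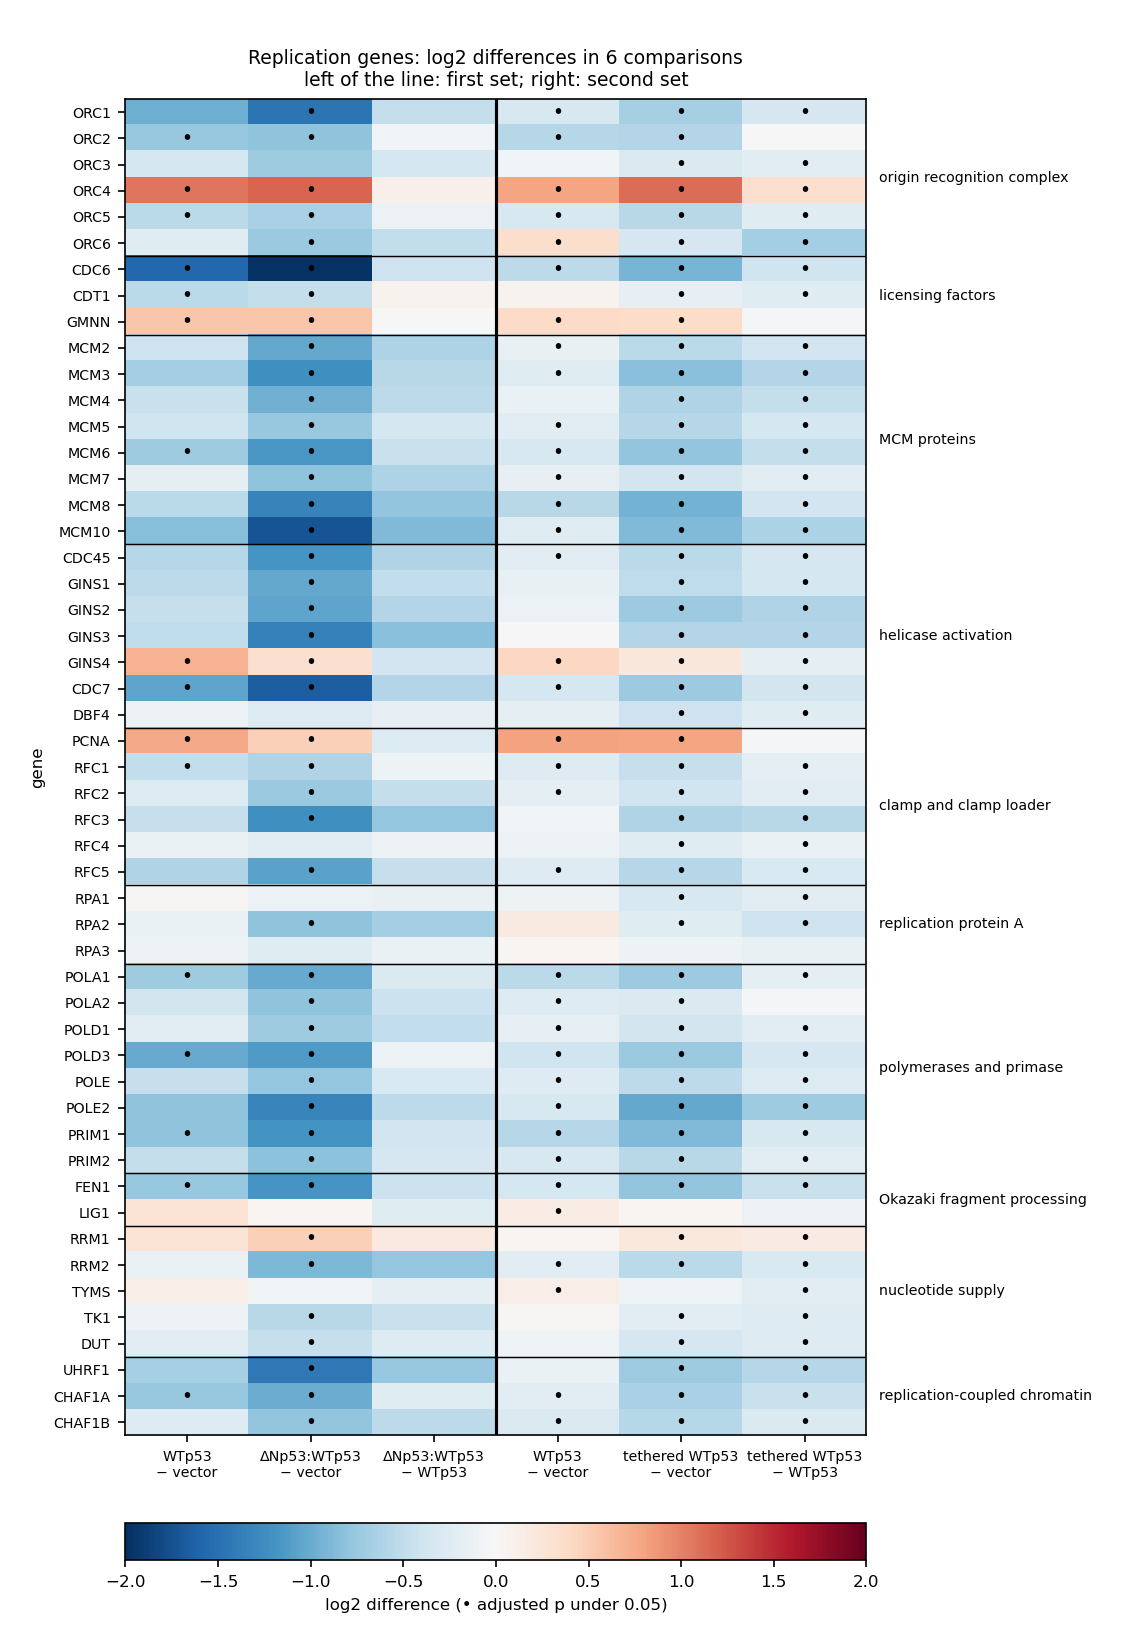
Log2 differences of the 51 genes (rows, by role) in the 6 comparisons (columns; the first set left of the black line), blue for lower and red for higher, with a dot where limma's adjusted p is under 0.05. Most rows are blue in both sets, and ORC4, GMNN, GINS4 and PCNA are red against vector in both.

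**Figure D2:**
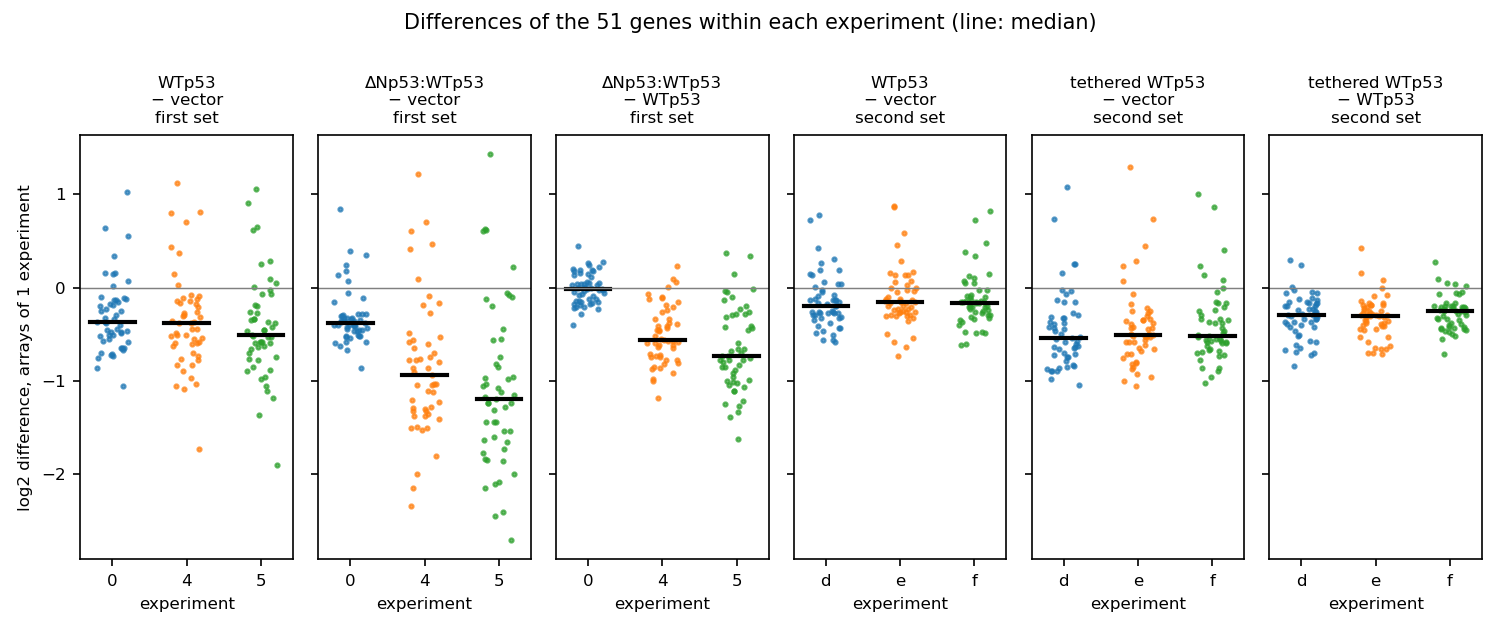
Log2 differences of the 51 genes (points) between the arrays of 1 experiment, with the median as a line, in each comparison. The medians of experiments d, e and f lie close together, whereas ΔNp53:WTp53 against WTp53 has medians of −0.01, −0.57 and −0.73 in experiments 0, 4 and 5.

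Among the licensing factors, CDC6, the ATPase that with ORC recruits the helicase, fell most. CDC6 stood at 7.86, 6.22 and 5.97 on the ΔNp53:WTp53 arrays of experiments 0, 4 and 5, at 7.67, 6.83 and 6.77 with WTp53, and at 8.72, 8.57 and 8.68 with vector. The vector arrays are above all others, and the other groups overlap. Against vector ΔNp53:WTp53 changed it by −1.97 ± 0.43 (SE, n = 3 arrays per group, limma adjusted p = 0.00499), 3.93-fold lower, and WTp53 by −1.57 ± 0.43 (limma adjusted p = 0.0179). The call with WTp53 was lost on leaving out any of 4 single arrays (adjusted p = 0.0504 to 0.0737). The second set had 8.63, 8.72 and 8.55 with tethered WTp53, 9.05, 9.03 and 9.02 with WTp53 and 9.61, 9.57 and 9.51 with vector. These groups do not overlap, and tethered WTp53 changed it by −0.93 ± 0.05 against vector (limma adjusted p = 8.03e-08) and by −0.40 ± 0.05 against WTp53 (limma adjusted p = 0.000242).

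CDT1, which brings the MCM ring to origins, had 7.77, 7.38 and 7.18 with ΔNp53:WTp53, 7.58, 7.32 and 7.23 with WTp53 and 8.09, 7.91 and 7.75 with vector, where ΔNp53:WTp53 overlaps vector. WTp53 changed it by −0.54 ± 0.16 (limma adjusted p = 0.0262) against vector, a call lost on leaving out the vector array of experiment 0 or 4 or the WTp53 array of experiment 4 or 5 (adjusted p = 0.0694 to 0.102). Values in the second set were 9.02, 8.97 and 9.07 with tethered WTp53, 9.22, 9.29 and 9.29 with WTp53 and 9.18, 9.15 and 9.24 with vector. WTp53 was not called there (0.08 ± 0.05, limma adjusted p = 0.223), and all tethered WTp53 arrays lie below both other groups, by −0.17 ± 0.05 against vector and −0.25 ± 0.05 against WTp53. With ΔNp53:WTp53 CDT1 fell by −0.47 ± 0.16 (limma adjusted p = 0.0407, and 0.0646 from only the 6 arrays of that comparison), and 6 single arrays each ended that call when left out (adjusted p = 0.0504 to 0.151). GMNN, the inhibitor geminin, rose: 9.54, 9.53 and 9.48 with ΔNp53:WTp53 and 9.53, 9.53 and 9.50 with WTp53, against 9.19, 8.83 and 8.87 with vector. Its second-set values were 10.22, 10.26 and 10.35 with tethered WTp53, 10.28, 10.27 and 10.33 with WTp53, and 9.97, 9.81 and 9.95 with vector. The p53 groups overlap each other and lie above vector in both sets, at 0.55 ± 0.10 and 0.56 ± 0.10 (ΔNp53:WTp53 and WTp53, limma adjusted p = 0.00212 and 0.00227) and at 0.37 ± 0.05 and 0.38 ± 0.05 (tethered WTp53 and WTp53).

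In the origin recognition complex, which marks the start sites, ORC4 moved against the rest. It had 8.82, 9.23 and 9.37 with ΔNp53:WTp53, 9.0, 9.14 and 9.0 with WTp53 and 7.98, 8.01 and 7.94 with vector. Every p53 array lies above every vector array. ORC4 rose 2.24-fold with ΔNp53:WTp53 (1.17 ± 0.13, limma adjusted p = 0.000146) and 2.10-fold with WTp53 (1.07 ± 0.13, limma adjusted p = 0.000245). Second-set values were 10.49, 10.61 and 10.45 with tethered WTp53, 10.19, 10.19 and 10.18 with WTp53, and 9.41, 9.32 and 9.45 with vector, and the 3 groups do not overlap. Tethered WTp53 was higher than WTp53 by 0.33 ± 0.05 (limma adjusted p = 0.00085). Of the other 5 subunits ORC1, ORC2, ORC5 and ORC6 fell with ΔNp53:WTp53 (ORC1 by −1.46 ± 0.34) and all 5 fell with tethered WTp53. ORC2 fell with WTp53 by −0.57 ± 0.05 in the second set and did not differ detectably between tethered WTp53 and WTp53 (−0.01 ± 0.05, limma adjusted p = 0.89). ORC6 in the second set had 8.54, 8.54 and 8.73 with tethered WTp53, 9.38, 9.20 and 9.28 with WTp53, and 8.96, 8.92 and 8.94 with vector. WTp53 lies above and tethered WTp53 below vector, by 0.35 ± 0.06 and −0.34 ± 0.06 (limma adjusted p = 0.00109 and 0.000858).

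All 8 MCM genes fell with ΔNp53:WTp53 and with tethered WTp53 against vector, and all 8 were lower with tethered WTp53 than with WTp53. MCM2, a subunit of the helicase ring, had 8.96, 8.19 and 7.78 with ΔNp53:WTp53, 8.99, 8.93 and 8.86 with WTp53 and 9.36, 9.31 and 9.33 with vector. The ΔNp53:WTp53 array of experiment 0 lies among the WTp53 arrays and the others lie below them. MCM2 in the second set had 10.27, 10.18 and 10.33 with tethered WTp53, 10.64, 10.64 and 10.64 with WTp53, and 10.77, 10.76 and 10.85 with vector, in 3 separate steps. The differences from vector were −1.02 ± 0.23 for ΔNp53:WTp53 (limma adjusted p = 0.00639) and −0.53 ± 0.05 for tethered WTp53 (limma adjusted p = 3.59e-06). WTp53 alone changed MCM2 by −0.41 ± 0.23 in the first set (limma adjusted p = 0.222, and 0.0119 without the ΔNp53:WTp53 array of experiment 0) and by −0.15 ± 0.05 in the second (limma adjusted p = 0.0268, and 0.0633 to 0.0982 on leaving out any of 4 single arrays). MCM10, which is needed to start helicase movement, had the largest fall of the 8 with ΔNp53:WTp53, −1.73 ± 0.34, and MCM8, a helicase in recombination repair, the largest with tethered WTp53, −0.94 ± 0.06. The smallest falls were those of MCM5 with ΔNp53:WTp53 (−0.75 ± 0.24, limma adjusted p = 0.0299, and 0.0572 to 0.106 on leaving out any of 5 single arrays) and of MCM7 with tethered WTp53 (−0.37 ± 0.04).

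Of the genes that activate the helicase, CDC7, the kinase that phosphorylates the MCM ring, fell by −1.65 ± 0.34 with ΔNp53:WTp53 (3.14-fold), by −1.06 ± 0.34 with WTp53 in the first set (limma adjusted p = 0.038), and by −0.72 ± 0.05 with tethered WTp53. The call with WTp53 in the first set was lost on leaving out any single vector or WTp53 array (adjusted p = 0.0528 to 0.124). Its values in the first set were 6.65, 5.32 and 4.99 with ΔNp53:WTp53, 6.47, 6.24 and 6.04 with WTp53, and 7.18, 7.32 and 7.41 with vector. The vector arrays lie above all others. DBF4, its activating partner, was not called in the first set and fell by −0.42 ± 0.07 with tethered WTp53. The helicase partner CDC45 and GINS1, GINS2 and GINS3 fell with ΔNp53:WTp53, by −1.02 to −1.35. GINS4, the remaining GINS subunit, rose with WTp53 by 0.70 ± 0.10 in the first set (limma adjusted p = 0.000587) and by 0.42 ± 0.06 in the second, rose by 0.31 ± 0.10 with ΔNp53:WTp53 (limma adjusted p = 0.0323), which was not called against WTp53 (−0.39 ± 0.10, limma adjusted p = 0.0787), and was lower with tethered WTp53 than with WTp53 (−0.19 ± 0.06, limma adjusted p = 0.0409). The call with ΔNp53:WTp53 against vector was lost on leaving out any of 4 single arrays (adjusted p = 0.0734 to 0.125), and that of tethered WTp53 against WTp53 on leaving out any of 6 (adjusted p = 0.0556 to 0.146).

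PCNA, the sliding clamp and a known p53 target, rose. It had 9.76, 9.47 and 9.56 with ΔNp53:WTp53, 9.91, 9.86 and 9.85 with WTp53, and 9.37, 9.06 and 8.95 with vector. WTp53 arrays are highest, vector arrays lowest, and no groups overlap. The rise was 0.47 ± 0.12 with ΔNp53:WTp53 (limma adjusted p = 0.011) and 0.75 ± 0.12 with WTp53 (limma adjusted p = 0.00106). The second set gave 10.49, 10.36 and 10.51 with tethered WTp53, 10.48, 10.50 and 10.46 with WTp53, and 9.75, 9.62 and 9.64 with vector, where the p53 groups overlap each other and lie above vector, by 0.78 ± 0.05 and 0.81 ± 0.05. The clamp loader subunits RFC1, RFC2, RFC3 and RFC5 fell with ΔNp53:WTp53, RFC3 by −1.23 ± 0.30, and all 5 subunits fell with tethered WTp53. RPA2, of the single-strand binding protein, fell by −0.81 ± 0.16 with ΔNp53:WTp53 (limma adjusted p = 0.00293) and by −0.42 ± 0.07 for tethered WTp53 against WTp53. RPA3 was called in none of the 6 comparisons.

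All 8 polymerase and primase genes fell with ΔNp53:WTp53 and with tethered WTp53 against vector. POLE2, the small accessory subunit of the leading-strand polymerase, had 6.34, 5.12 and 4.62 with ΔNp53:WTp53, 6.08, 5.86 and 5.73 with WTp53, and 6.81, 6.63 and 6.62 with vector. The ΔNp53:WTp53 array of experiment 0 lies above all WTp53 arrays and the others below them. POLE2 fell by −1.33 ± 0.34 against vector with ΔNp53:WTp53 (limma adjusted p = 0.0121). In the second set it had 8.04, 7.99 and 7.98 with tethered WTp53, 8.74, 8.69 and 8.69 with WTp53, and 9.09, 8.99 and 9.01 with vector. This is the largest fall of the 51 genes with tethered WTp53, −1.03 ± 0.04 against vector, 2.04-fold (limma adjusted p = 1.28e-08), and −0.70 ± 0.04 against WTp53 (limma adjusted p = 6.32e-06). PRIM1, the primase catalytic subunit, fell by −1.20 ± 0.24 with ΔNp53:WTp53 and −0.88 ± 0.05 with tethered WTp53. POLD3, a subunit of the lagging-strand polymerase, fell by −1.01 ± 0.30 with WTp53 in the first set (limma adjusted p = 0.0283, and 0.0527 to 0.1 on leaving out any of 5 single arrays). FEN1, which trims Okazaki fragments, fell by −1.18 ± 0.25 with ΔNp53:WTp53, whereas LIG1, the ligase that joins them, was not called with ΔNp53:WTp53 (0.04 ± 0.10) or with tethered WTp53 (0.04 ± 0.05).

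Among the nucleotide supply genes RRM1 and RRM2, the large and small subunits of ribonucleotide reductase, went apart. RRM2 had 8.15, 7.68 and 7.19 with ΔNp53:WTp53, 8.43, 8.46 and 8.44 with WTp53, and 8.55, 8.73 and 8.44 with vector. All ΔNp53:WTp53 arrays lie below all WTp53 arrays. RRM2 fell by −0.90 ± 0.20 against vector (limma adjusted p = 0.00545), and its difference from WTp53 was −0.77 ± 0.20 (limma adjusted p = 0.0766, 0.0402 with the block, and 0.00235 without the array of experiment 0). Its second-set values were 10.27, 10.21 and 10.06 with tethered WTp53, 10.47, 10.50 and 10.50 with WTp53, and 10.74, 10.74 and 10.66 with vector, without overlap. RRM1 rose by 0.47 ± 0.14 with ΔNp53:WTp53 (limma adjusted p = 0.0206, and 0.0511 to 0.0841 on leaving out any of 5 single arrays) and by 0.21 ± 0.05 with tethered WTp53 (limma adjusted p = 0.00747). Its difference between tethered WTp53 and WTp53, 0.16 ± 0.05 (limma adjusted p = 0.0382), lost the call when arrays were centred on their median (adjusted p = 0.0813) or when only those 6 arrays were fitted (adjusted p = 0.0619), and on leaving out any of 6 single arrays (adjusted p = 0.0516 to 0.127). TK1 and DUT, which make and clean thymidine precursors, fell with both, and TYMS, thymidylate synthase, was not called against vector with either.

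UHRF1, which recruits the maintenance DNA methyltransferase to new strands, had 8.42, 7.32 and 6.87 with ΔNp53:WTp53, 8.39, 8.30 and 8.20 with WTp53, and 9.09, 8.85 and 8.95 with vector. The ΔNp53:WTp53 array of experiment 0 lies just above the WTp53 arrays and the others lie below them. In the second set it had 9.86, 9.85 and 10.19 with tethered WTp53, 10.53, 10.50 and 10.59 with WTp53, and 10.61, 10.67 and 10.76 with vector. It fell by −1.43 ± 0.31 with ΔNp53:WTp53 and −0.71 ± 0.08 with tethered WTp53 against vector (limma adjusted p = 0.00485 and 2.93e-05). CHAF1A and CHAF1B, which place histones behind the fork, fell by −1.0 ± 0.23 and −0.78 ± 0.16 with ΔNp53:WTp53.

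**Figure D3:**
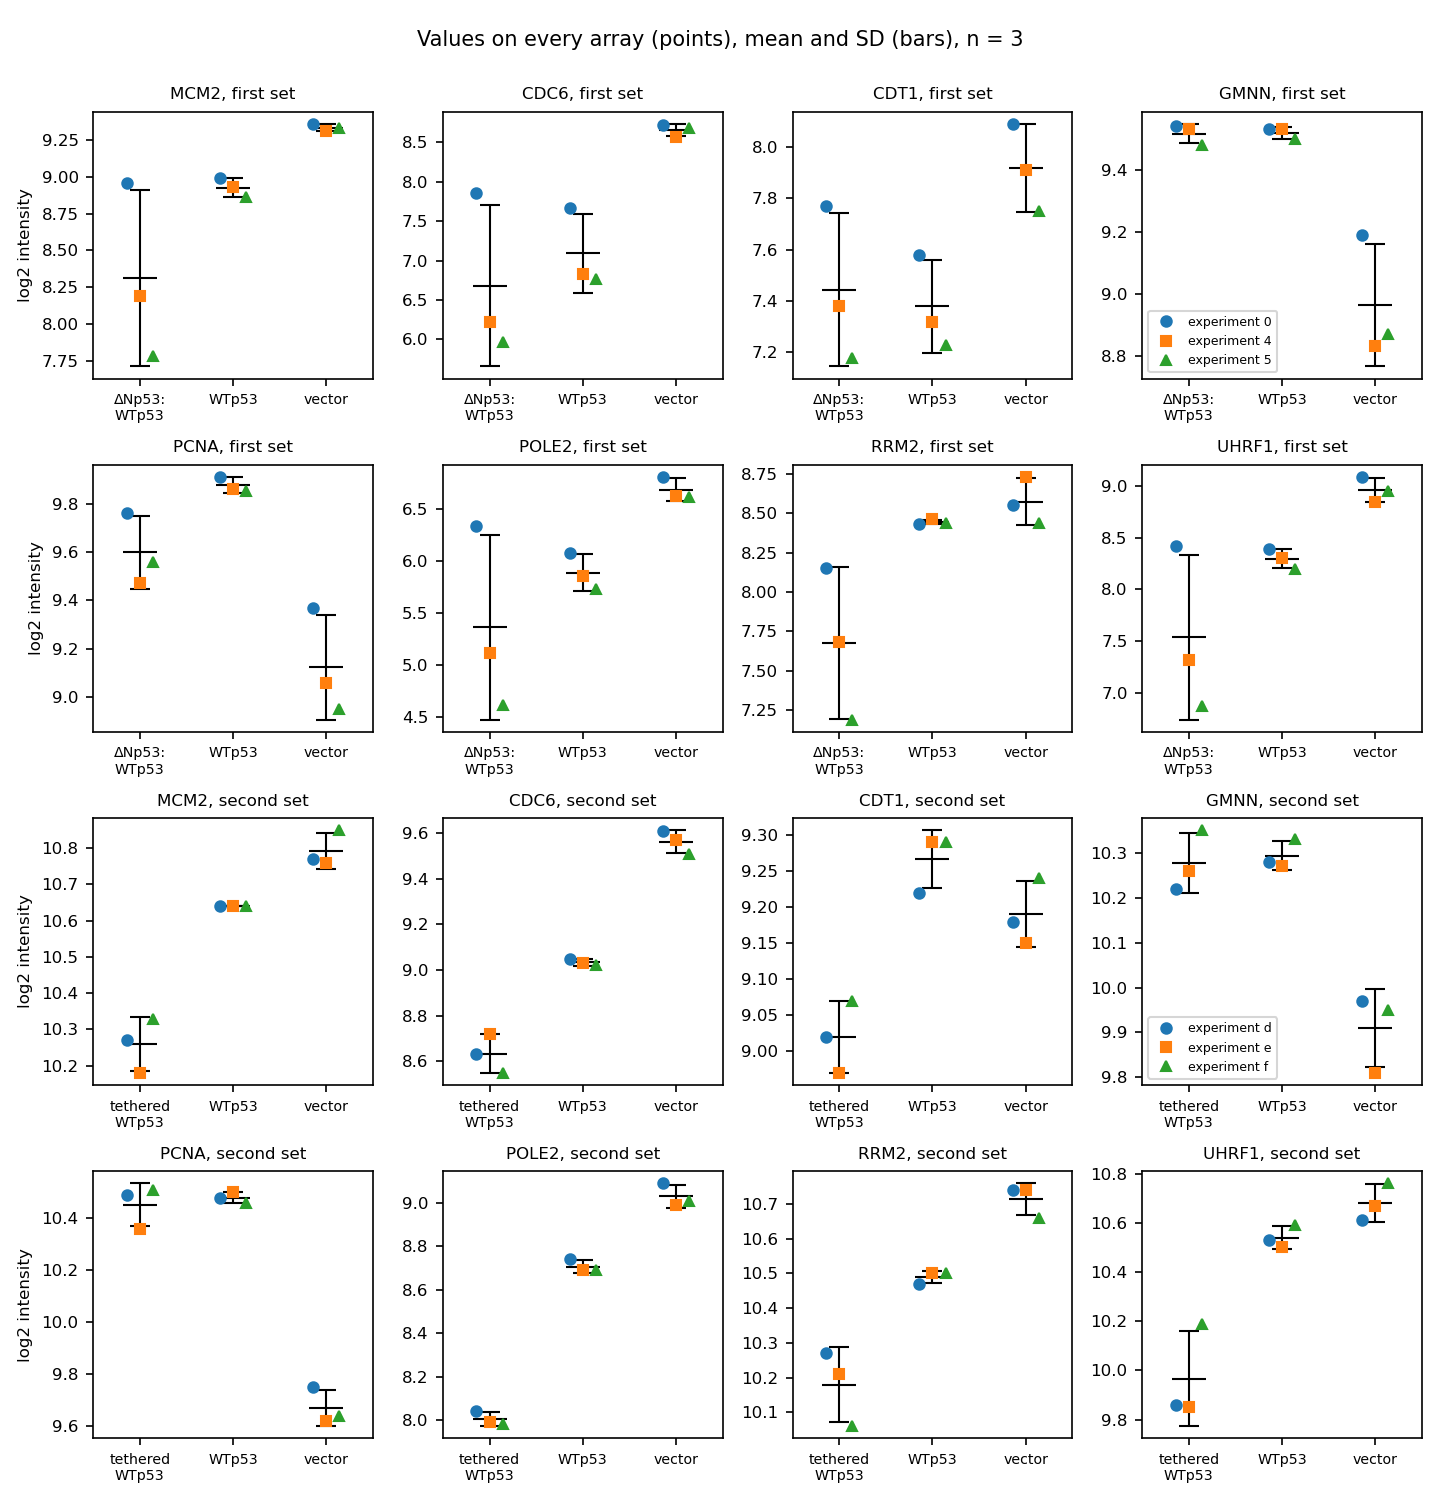
Log2 intensity of 8 genes on every array (points, coloured by experiment), with the mean and SD of 3 arrays (bars), in the first set (upper 2 rows) and the second (lower 2 rows). The ΔNp53:WTp53 point of experiment 0 lies above those of experiments 4 and 5 in all 8 genes, though barely in GMNN. In MCM2, CDC6, CDT1, PCNA, POLE2 and UHRF1 the WTp53 and vector points of experiment 0 are also the highest of their groups.

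Effects were set side by side between the sets, which have different vector arrays. That the constructs differ rests on the titles, since the transfection field of the tethered arrays names ΔNp53:WTp53. All 39 genes lower with ΔNp53:WTp53 against vector were also lower with tethered WTp53, which is 100% of 39 and 90.7% of 43, against 86.4% and 67% for all genes, and the same 5 genes were higher in both. Of the 12 genes lower with WTp53 in the first set 11 were lower in the second (91.7% of 12 and 39.3% of 28, against 71.7% and 63.1% for all genes), and the exception was CDT1. In a fit of all 18 arrays the WTp53 effect of the first set less that of the second was called for CDT1 (−0.62 ± 0.15, limma adjusted p = 0.0128) and ORC6 (−0.59 ± 0.19, limma adjusted p = 0.0498), where 13.2% of all genes were called (7% lower, 6.25% higher). Without the ΔNp53:WTp53 array of experiment 0 the count was 14, against 20% of all genes, and without the WTp53 array of experiment 4 or 5 it was 0, against 5.85% and 5.48%. For the added effect of the construct over WTp53, ΔNp53:WTp53 less tethered WTp53, no gene was called (lowest limma adjusted p = 0.22, RRM2; 2 at an unadjusted p of 0.05), where 2.51% of all genes were called (1.20% lower, 1.31% higher) and 16.7% passed unadjusted, and without the array of experiment 0 the count was 15, all lower, against 5.32% of all genes.

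**Figure D4:**
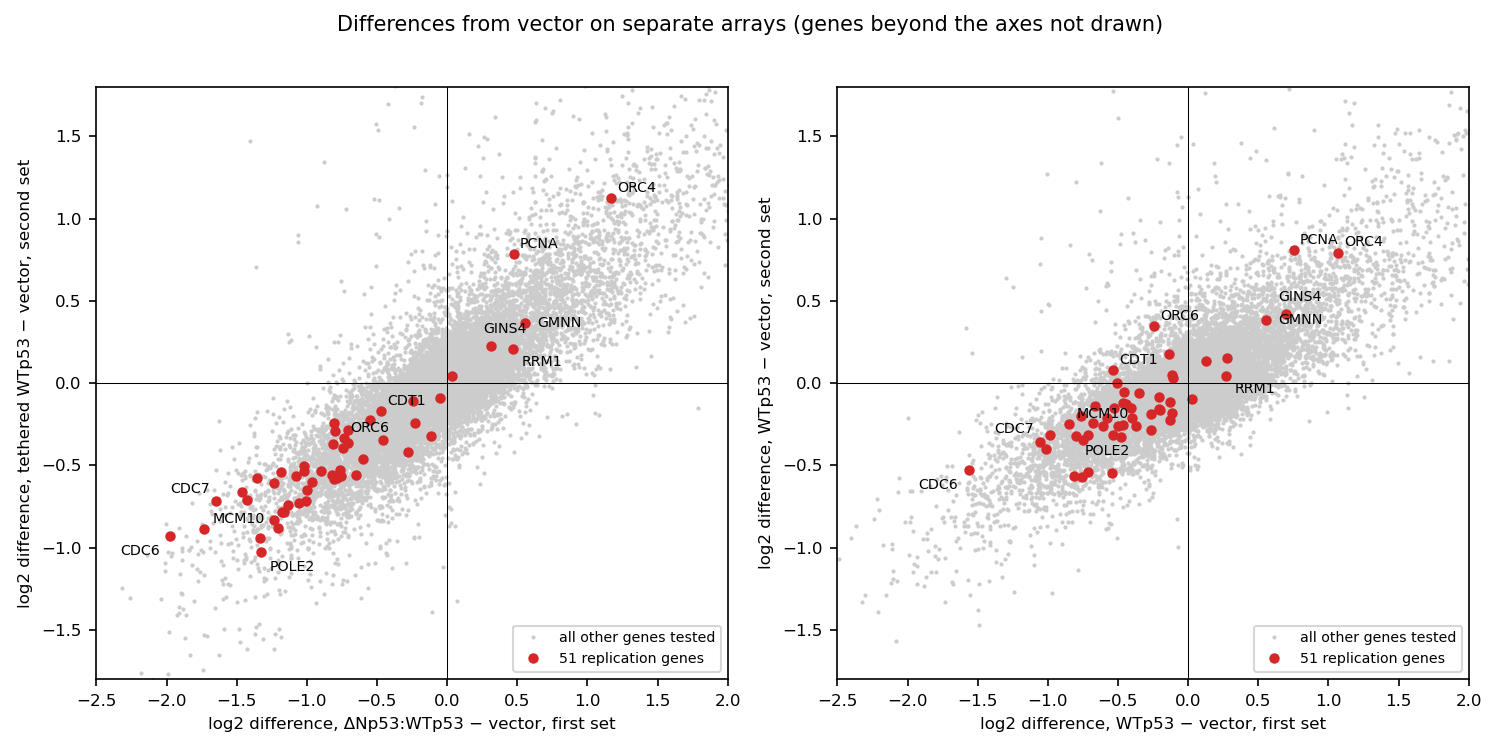
Log2 differences from vector in the second set (vertical) against the first (horizontal), for ΔNp53:WTp53 and tethered WTp53 (left) and for WTp53 in both sets (right), with the 51 genes in red and all others in grey. Most red points lie at lower left, ORC4 and PCNA at upper right, and CDT1 and ORC6 above 0 on the vertical axis of the right panel.

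Of 42 other measured replication genes (of 44 listed), 27 fell and 3 rose with ΔNp53:WTp53 (71.4% called, against 36.1% of all genes). With tethered WTp53 33 fell and 3 rose (85.7%, against 47.8%). With WTp53 13 fell and 1 rose in the first set (33.3%, near the 31.8% of all genes). In the second set 17 fell and 4 rose with WTp53 (50%, against 36.8%). ΔNp53:WTp53 against WTp53 had 2 lower and 1 higher (7.14%, against 2.44%). Tethered WTp53 against WTp53 had 28 lower and 1 higher (69%, against 32.4%). RRM2B, the p53-inducible small subunit of ribonucleotide reductase, rose with WTp53 by 1.47 ± 0.09 (limma adjusted p = 9.29e-06) and with ΔNp53:WTp53 by 0.91 ± 0.09, and was lower with ΔNp53:WTp53 than with WTp53 by −0.55 ± 0.09 (limma adjusted p = 0.0166). That last call was lost from only the 6 arrays of the comparison (adjusted p = 0.0583), without any single WTp53 array or the ΔNp53:WTp53 array of experiment 4 (adjusted p = 0.0502 to 0.0877), and without all arrays of experiment 4 (adjusted p = 0.558) or 5 (adjusted p = 0.279). FBXO5, which restrains the ubiquitin ligase that degrades geminin, fell by −2.68 ± 0.48 with WTp53 in the first set and −1.77 ± 0.09 with tethered WTp53. TOPBP1, an activator of origin firing, fell by −1.48 ± 0.22 with WTp53 in the first set, and DTL, of the ligase that degrades CDT1, by −1.03 ± 0.04 with tethered WTp53. POLD4, a small polymerase delta subunit, rose by 0.45 ± 0.06 with tethered WTp53. ASF1A, a histone chaperone, differed in sign: 0.40 ± 0.13 with ΔNp53:WTp53 (limma adjusted p = 0.031, 0.0609 with centred arrays, and 0.0549 to 0.111 on leaving out any of 5 single arrays) and −0.27 ± 0.04 with tethered WTp53.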

How the data were processed

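RNA was measured on 18 Affymetrix Gene arrays of NCI-H1299 cells, 3 per group. Per the submitters' processing notes, the deposited values are log2 intensities that the authors made with RMA in Affymetrix Expression Console; versions are not given in the sources used here. Precision is limited by 3 arrays a group. The 33297 probe sets were named from the platform annotation (19460 with 1 symbol, 1754 with several, 12083 not listed); the highest-mean probe set stood for a gene, which left 18417 genes. Each set was fitted alone in R 4.3.3 with limma 3.58.1 (group means, 6 residual degrees of freedom), two-sided, with Benjamini-Hochberg adjustment over all genes and a threshold of 0.05. Differences between sets used all 18 arrays with weights per set (second over first, 4.34). An exact permutation test of 3 against 3 cannot go below p = 0.1. The script was tested on simulated data with independent noise and, for each gene, the same spread in all groups. The first set departs from both, so the simulation checks the code and not the calls there. Same-experiment residual correlations were all above 0.1 in the first set (0.11 to 0.57). Between groups, arrays of experiment 4 also correlated with those of experiment 5 (0.14 to 0.35). Arrays of experiment 0 ran against both (−0.50 to −0.17). Residuals were taken from each group's mean, so a departure of experiment 0 shared by the groups would by itself give both patterns. The labels thus set experiment 0 apart, and pairing within 4 and within 5 was not shown. Same-experiment correlations of the second set were −0.04 to 0.13 and paired nothing. Alternatives were another fit, block, weights, probe set rule, level filter, centring and each array left out. The genes, lists and rule for named genes (8 fixed genes, CDKN1A and RRM2B, the largest called rises and falls per comparison, and up to 3 called genes per direction of the other list) were chosen with earlier results of these data known.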

Additional observations from a re-analysis of the deposited data

Results flagged for a closer look

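The WTp53 effect (WTp53 minus vector) differed between the first and second set for 2 of the 51 genes by the limma test of the difference itself. The same test called 13.2% of all genes, a larger share than of the 51. The licensing factor CDT1 differed by −0.62 ± 0.15 (limma adjusted p = 0.0128): WTp53 changed it by −0.54 in the first set and 0.08 in the second. Its call was lost without the WTp53 array of experiment 4 (adjusted p = 0.0521) or 5 (adjusted p = 0.0657). The origin recognition subunit ORC6 differed by −0.59 ± 0.19 (limma adjusted p = 0.0498): −0.25 in the first set and 0.35 in the second. The call of ORC6 was lost without array weights (adjusted p = 0.0835) and on leaving out any of 13 of the 18 arrays (adjusted p = 0.0549 to 0.176). The sets were normalized apart and their experiments are labelled differently, so set and normalization cannot be told apart. Groups of 3 arrays were too small for the rule on single outlying samples.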

How the results depend on the processing

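Counts of called genes moved by more than 1.5 times as follows, with the share of all genes called in brackets. WTp53 against vector in the first set gave 16 calls (31.8%). It gave 29 with both sets in 1 fit (43.7%), 37 from only its 6 arrays (36.7%), 25 with the replicate block (35.0%) and 38 with weights per array (44.6%). Leaving out arrays or experiments gave 3 to 38 calls (11.5% to 38.2%) and medians of −0.53 to −0.37. ΔNp53:WTp53 against vector gave 44 calls (36.1%), and 2 to 46 with arrays or experiments left out (10.2% to 44.0%). ΔNp53:WTp53 against WTp53 gave 0 calls (2.44%). It gave 17 with both sets in 1 fit (14.6%), 3 with the block (4.38%) and 40 with weights per array (24.6%). Among genes above the median level it gave 1 (5.78% of those genes). From only its arrays without experiment 0 (chosen after seeing the data) it gave 29 (7.93%). With arrays or experiments left out it gave 0 to 36 (0.0% to 13.4%). With both sets in 1 fit the second set takes on the wider spread of the first. WTp53 against vector in the second set then gave 8 calls (19.6%) and tethered WTp53 against WTp53 gave 5 (10.1%). Centring arrays on their median moved the second-set medians to −0.22 (WTp53), −0.61 (tethered WTp53) and −0.32 (tethered against WTp53). Leaving out arrays of the second set gave 23 to 37 calls for WTp53 (27.7% to 37.8%) and medians of −0.21 to −0.165. For tethered WTp53 it gave medians of −0.57 to −0.51. The difference of the WTp53 effects gave 2 calls (13.2%), 1 without weights (12.5%) and 4 with the replicate block (16.6%). With arrays left out it gave 0 to 14 (5.48% to 20.0%). The difference of the construct effects gave 0 to 15 (0.711% to 5.32%). In the second set, whose labels pair no arrays, the block moved no count by over 1.5 times. Other causes were not tested. Of 6586 recomputed values of 344 gene results, 5778 kept their side of the threshold, 474 lost and 334 gained the call, and 0 called values changed sign.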
